A study of Homo sapiens with 6 samples.

Results

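The genes described here are 37 genes of glutathione, thioredoxin and NADPH metabolism, chosen by symbol from the 27451 gene rows of the deposited expression table. All 37 had a row, and all passed the filter of a mean of at least 1 TPM (transcript abundance scaled to a fixed total in each library) that left 12294 genes to test. They were measured by poly-A RNA sequencing of MDA-MB-231 cells, a human breast cancer line in long use that lacks estrogen and progesterone receptors. In the H182 group, 3 libraries came from cells exposed to 2 µM of H182 for 2 h. The series title places H182 among azetidine-based inhibitors of the transcription factor STAT3. In the DMSO group, 3 libraries came from cells given the vehicle DMSO for the same 2 h. The groups differed by no other agent or allele in the labels, and both are 1 cell line at 1 dose and 1 time. Nothing in the labels ties the numbered libraries to separate cultures. The p-values therefore reflect how far these 3 libraries of a group differ, and that variation may be technical.

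Across the tested genes, Pearson's r on log2(TPM + 1) was 0.9928 to 0.9942 for pairs of libraries within a group and 0.9787 to 0.9806 for pairs of an H182 and a DMSO library. The mesenchymal marker VIM was at 3430 to 3701 TPM in H182 and 4002 to 4051 TPM in DMSO. Epithelial markers were examined too. KRT8 was at 417 to 438 TPM in H182 and 477 to 488 TPM in DMSO. KRT18 was at 402 to 436 TPM in H182 and 460 to 475 TPM in DMSO. EPCAM lay between 12.49 and 16.15 TPM in all 6 libraries, and CDH1 did not exceed 0.28 TPM. ESR1 and PGR, the genes of the absent receptors, did not exceed 0.06 TPM in any library, and the T cell marker CD3E did not exceed 0.07 TPM. Of the other markers of foreign cell types examined, CD68 was between 137.83 and 157.1 TPM in all 6 libraries, COL1A1 between 6.81 and 8.37 TPM, and the rest below 2 TPM. TPM keeps no record of read numbers, and sequencing depth is therefore unknown. In bulk RNA, fewer cells with a transcript and less of it per cell cannot be told apart.

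Glutathione is a cysteine-containing tripeptide that cells make in their cytosol and use to reduce peroxides, to conjugate electrophiles and to protect protein thiols. Thioredoxin is a small protein that reduces disulfides, including those of most peroxiredoxins, which destroy hydrogen peroxide. Both systems are recharged with electrons from NADPH, through glutathione reductase and thioredoxin reductase, and NADPH in turn comes largely from the pentose phosphate pathway and malic enzyme. Many of these genes are targets of NRF2, a transcription factor that is released from its repressor KEAP1 when cysteines of KEAP1 are modified, and a few, CHAC1 and SLC7A11 among them, are targets of ATF4.

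After 2 h of H182, the members that rose belonged to several of the roles. The cystine importer gene SLC7A11 and both subunit genes of the first enzyme of glutathione synthesis rose, as did TXNRD1, SRXN1 and PRDX1 of the thioredoxin system, the quinone reductase gene NQO1, OSGIN1 and SOD1. CHAC1, whose product breaks glutathione down, rose 19.6-fold. None of the 4 NADPH supply members (PGD, TALDO1, TKT and ME1) passed the test in either direction. With only 4 genes, that is near the 5.30% higher and 18.7% lower of all tested genes. In the limma fit across all tested genes, with a Benjamini-Hochberg adjusted p under 0.05 as the threshold, 10 of the 37 members rose and 2 fell, GPX1 and PRDX3. That is 27.0% higher and 5.41% lower, where 5.30% of all tested genes were higher and 18.7% lower. CHAC1 was the 1 member that rose by at least 1 on the log2 scale, a size that 1.30% of the tested genes reached.

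The count of falls depended on how libraries were scaled. A TPM value is a share of its library, and the median log2 change of all tested genes was -0.09, against -0.02 for the members. With median-of-ratios scaling, which sets the median gene near 0, the same quantities were 0.00 and 0.08. On that scale 12 members were higher and none lower, where 7.91% of all tested genes were higher and 6.79% lower. The 2 additional rises were GLRX and GLRX2, and neither GPX1 nor PRDX3 passed. In TPM, 12 members had all 3 H182 libraries above all 3 DMSO libraries, against 8.67% of tested genes, and 8 had all H182 libraries below, against 32.7%. The number of members called lower was 1 without H182 replicate 1 or without H182 replicate 2 and 4 without H182 replicate 3, while the number called higher was 9 or 10 with any 1 library left out. Over all tested genes, the number lower was 2304 with all libraries, 1407 without DMSO replicate 2 and 1486 without H182 replicate 2.

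**Figure D1:**
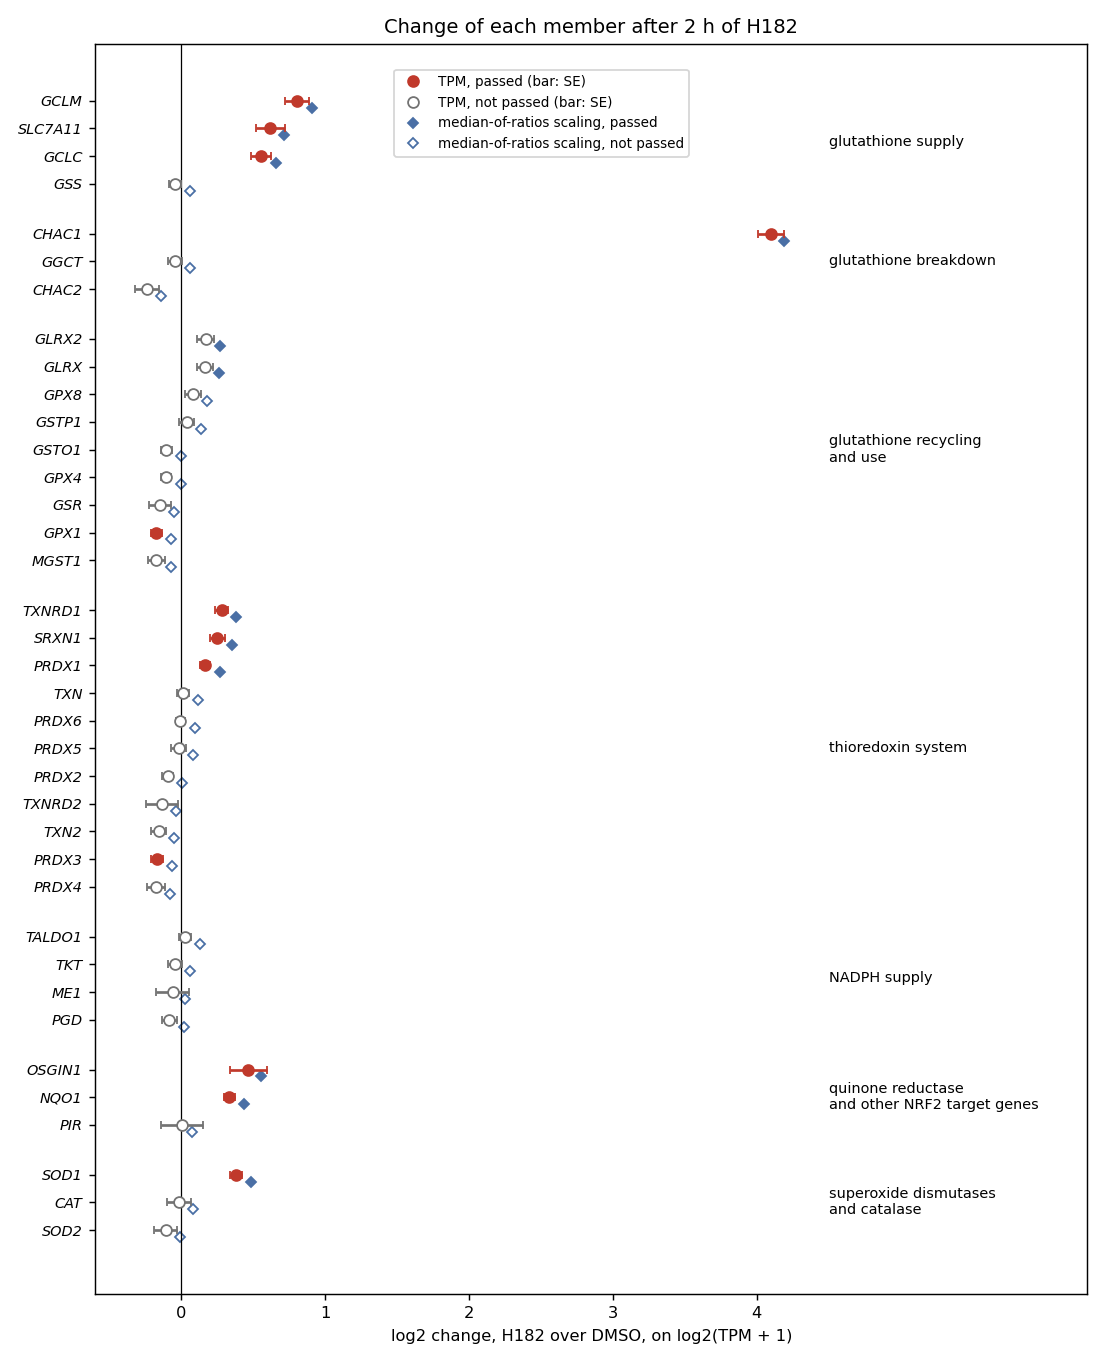
Log2 change of each of the 37 members in H182 over DMSO, on log2(TPM + 1), grouped by role. Circles show the fit in TPM with its SE (filled where the adjusted p was under 0.05), and diamonds the same fit after median-of-ratios scaling. CHAC1 lies at 4.10, the other passing rises lie between 0.16 and 0.80, and the 4 NADPH supply members lie around 0.

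Promoter sequence was available in the RefSeq promoter table (GRCh38.p14) for 29 of the 37 members. A single window was used for each gene, from 250 bases before a RefSeq start to 50 after it. The windows of GCLC, CHAC1, GSTO1, MGST1, GLRX, PRDX4, PGD, NQO1, OSGIN1 and SOD2 lie wholly inside the gene's annotated span. Other starts of a gene were not searched. Both strands were searched for 3 motifs, and no 2 matches overlapped. The core of the antioxidant response element bound by NRF2, TGACNNNGC, was found in 7 of the 29 member windows (24.1%), against 15.14% of the windows of tested genes and 13.56% of all 27305 windows. Of the 7 members that rose and had a window, 2 held it (GCLM and TXNRD1). Of the 22 other members with a window, 5 held it (GSTP1, GSTO1, PGD, ME1 and PIR). The core of the C/EBP-ATF response element bound by ATF4, TGATGNAA, was found in the windows of CHAC1 and GPX8, against 1.61% of the windows of tested genes. The core of the heat shock element, GAANNTTC, was found in none of the member windows, against 4.54% of the windows of tested genes. A match is only a string of letters in this window, and sites farther away were not searched.

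The 4 stretches below were picked among members with a match, 3 that rose and 1 that did not. GCLC, SRXN1, NQO1 and OSGIN1 also rose and had a window, but held no match. GSTO1, PGD, ME1, PIR and GPX8 held a match and did not rise. The stretches shown therefore do not compare members that rose with those that did not. Each runs 5′ to 3′ on the strand of its gene over 252 bases, up to 2 bases past the RefSeq start, with matches in capitals. Positions count from the start, the base just before it being -1. In GCLM, the match GCTTAGTCA, on the opposite strand, begins at -34. TXNRD1 has TGACTTCGC at -99 and GCTCCGTCA, on the opposite strand, at -8. In CHAC1 the match TTGCATCA, on the opposite strand, begins at -209. GSTP1, which did not pass the test, has TGACTCAGC at -66. The stretches lie at chr1:93909429-93909680 (minus strand), chr12:104215529-104215780 (plus strand), chr15:40953221-40953472 (plus strand) and chr11:67583562-67583813 (plus strand).
GCLM: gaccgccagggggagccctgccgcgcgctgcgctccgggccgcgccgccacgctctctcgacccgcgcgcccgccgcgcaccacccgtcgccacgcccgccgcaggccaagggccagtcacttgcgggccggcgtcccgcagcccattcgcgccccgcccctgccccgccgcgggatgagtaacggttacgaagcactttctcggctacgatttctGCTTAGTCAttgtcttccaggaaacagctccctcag
TXNRD1: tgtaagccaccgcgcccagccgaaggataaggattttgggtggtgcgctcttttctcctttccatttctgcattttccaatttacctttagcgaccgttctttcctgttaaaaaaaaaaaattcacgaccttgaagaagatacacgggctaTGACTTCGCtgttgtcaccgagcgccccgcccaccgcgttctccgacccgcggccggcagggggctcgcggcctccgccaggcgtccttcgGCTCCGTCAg
CHAC1: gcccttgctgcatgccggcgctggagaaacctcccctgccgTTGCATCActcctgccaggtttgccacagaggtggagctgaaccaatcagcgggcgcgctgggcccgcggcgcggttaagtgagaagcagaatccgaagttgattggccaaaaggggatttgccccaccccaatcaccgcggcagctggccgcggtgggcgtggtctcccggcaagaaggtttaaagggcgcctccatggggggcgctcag
GSTP1: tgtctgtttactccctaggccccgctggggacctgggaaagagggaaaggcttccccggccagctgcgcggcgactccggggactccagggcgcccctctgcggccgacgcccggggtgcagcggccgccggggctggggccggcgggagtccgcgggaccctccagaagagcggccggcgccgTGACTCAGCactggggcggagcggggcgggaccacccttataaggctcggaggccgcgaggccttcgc

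Glutathione supply begins with cystine uptake by SLC7A11 (xCT) and runs through glutamate-cysteine ligase, made of the catalytic subunit GCLC and the modifier GCLM, to glutathione synthetase, GSS. Of these 4 genes, 3 rose (75%, against 5.30% of all tested genes). GCLM, whose promoter stretch is given above (ENSG00000023909.9, GRCh38 chromosome 1, 93885205 to 93909456, minus strand), was at 95.23, 87.85 and 103.69 TPM in the H182 libraries, against 49.30, 60.68 and 53.24 TPM in the DMSO libraries. Its lowest H182 library was above its highest DMSO library, and its mean was 1.76-fold that of DMSO (log2 change 0.80, SE 0.083, limma adjusted p = 0.000141). GCLC (chromosome 6, 53497341 to 53616970, minus strand) was at 56.33, 52.50 and 57.75 TPM in H182 and 34.22, 39.71 and 38.83 TPM in DMSO. Here too the groups did not overlap, and the ratio of means was 1.48 (log2 change 0.55, SE 0.070, adjusted p = 0.000527).

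SLC7A11 (chromosome 4, 138164097 to 138242349, minus strand) was at 25.08, 27.37 and 33.76 TPM in H182, against 18.01, 18.41 and 18.33 TPM in DMSO. All H182 libraries were above the DMSO libraries, with a wider spread in H182 (28.7 ± 4.498 TPM) than in DMSO (18.25 ± 0.212 TPM; SD, n = 3 each). The ratio of means was 1.57 (log2 change 0.62, SE 0.101, adjusted p = 0.00236). GSS, the last enzyme of the pathway, was at 106.14, 112.47 and 107.49 TPM in H182 and 112.60, 111.71 and 112.50 TPM in DMSO. Its groups overlapped and it did not pass (log2 change -0.05, SE 0.042, adjusted p = 0.452).

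Within the ligase, the balance of the subunit genes was compared directly. The TPM ratio of GCLM to GCLC within a library does not depend on how that library is scaled, and it was 1.69, 1.67 and 1.80 in H182 against 1.44, 1.53 and 1.37 in DMSO. The ratio was 1.19-fold that of DMSO (log2 difference 0.25, SE 0.055), with no overlap between the groups. The two-sided exact permutation test of 3 against 3 libraries cannot go below p = 0.1, and gave p = 0.1 here and 0.167 after adjustment over the 15 pairs of members compared in this way. The ratio of SLC7A11 to GCLC overlapped between the groups (log2 difference 0.08, SE 0.127, exact permutation p = 0.7).

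Glutathione breakdown in the cytosol is carried out by the CHAC enzymes, which cleave it to 5-oxoproline and cysteinylglycine, and GGCT, gamma-glutamylcyclotransferase, which acts on gamma-glutamyl dipeptides. Of these genes, 1 of 3 passed, as a rise (33.3%, against 5.30% of all tested genes). CHAC1 (ENSG00000128965.11, chromosome 15, 40952962 to 40956519, plus strand) was at 116.09, 123.00 and 128.37 TPM in H182, against 5.67, 7.31 and 5.76 TPM in DMSO. The groups were far apart, and the change was the largest but 14 in absolute size among the 12294 tested genes (log2 change 4.10, SE 0.092, adjusted p = 1.35e-09). Its paralog CHAC2, the slower and constitutive form, was at 13.28, 14.21 and 15.82 TPM in H182 and 16.98, 16.77 and 17.71 TPM in DMSO. All H182 libraries of CHAC2 were below the DMSO libraries, but it did not pass (log2 change -0.24, SE 0.084, adjusted p = 0.0686). Without H182 replicate 3 it did (-0.30, adjusted p = 0.0325).

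CHAC1 was above CHAC2 in every H182 library and below it in every DMSO library. The TPM ratio of CHAC1 to CHAC2 was 8.74, 8.66 and 8.11 in H182, against 0.334, 0.436 and 0.325 in DMSO, a 23.5-fold difference (log2 difference 4.55, SE 0.139, exact permutation p = 0.1, the smallest possible). GGCT had 114 ± 3.42 TPM in H182 and 117 ± 4.85 TPM in DMSO and did not pass (log2 change -0.04). The TPM ratio of CHAC1 to GGCT was 0.987, 1.11 and 1.14 in H182, against 0.0463, 0.0629 and 0.0509 in DMSO. CHAC1 also rose by itself, so its ratios are not results separate from that rise. The 3 breakdown genes together held 251 ± 5.27 TPM in H182 and 141 ± 4.36 TPM in DMSO. Of these, CHAC1 alone had a higher mean in H182, and the means of CHAC2 and GGCT were lower. The 4 supply genes together held 289 ± 12.3 TPM in H182 and 223 ± 8.20 TPM in DMSO.

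**Figure D2:**
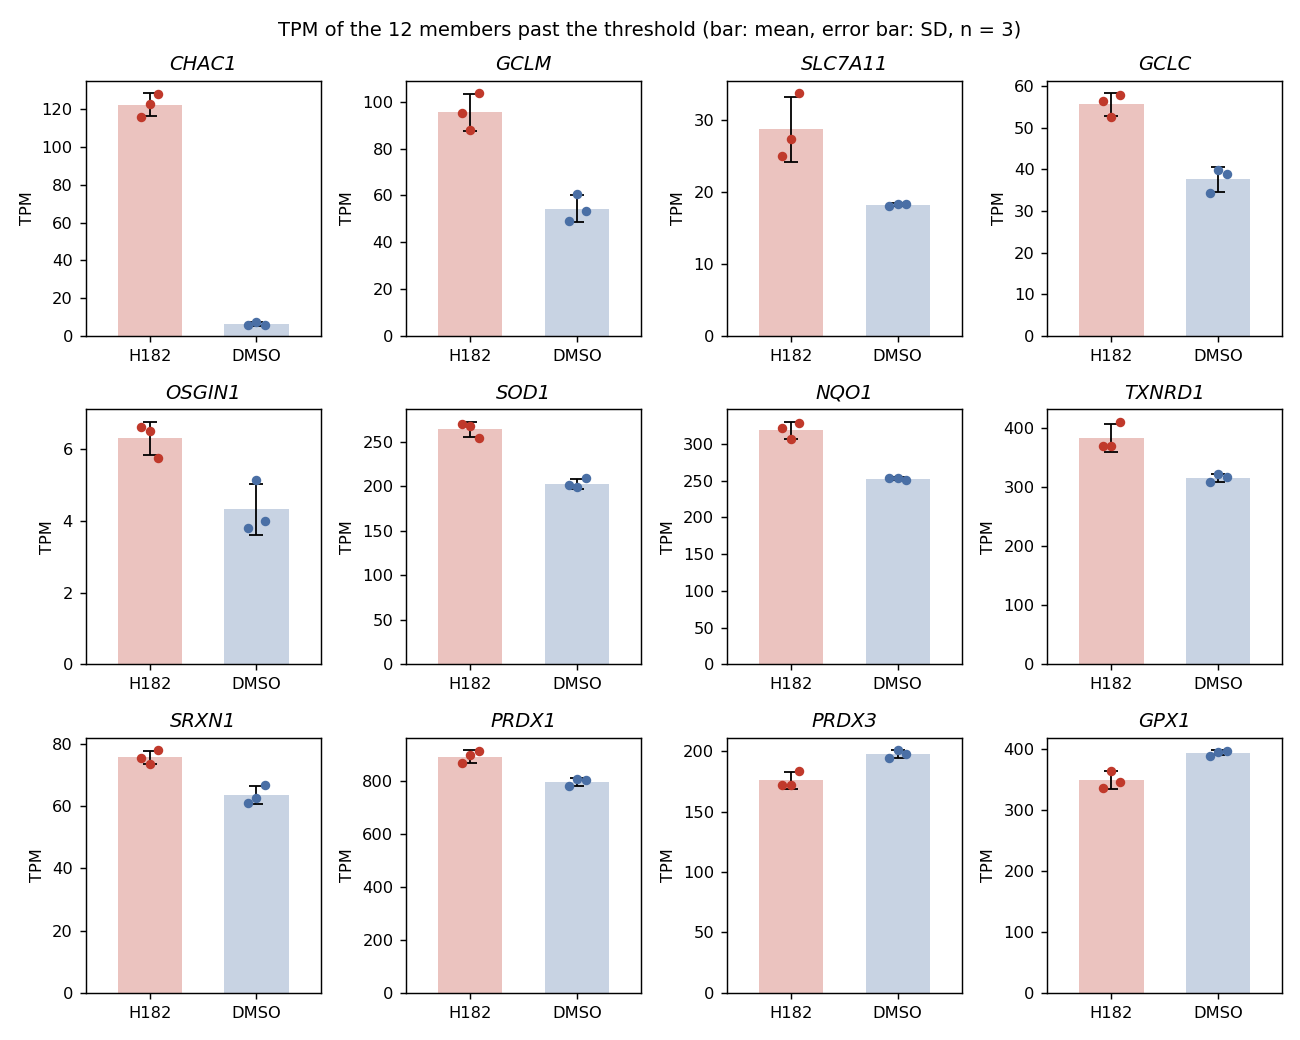
TPM in each library for the 12 members past the threshold, with H182 left of DMSO in each panel. Bars are means, error bars SDs over 3 libraries and points single libraries, and each vertical axis starts at 0. CHAC1 sits near 120 TPM in H182 and near 6 TPM in DMSO, whereas the last 2 panels, PRDX3 and GPX1, show H182 libraries just below the DMSO libraries.

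Among the genes that recycle and use glutathione, changes were small. This role holds glutathione reductase (GSR), the glutathione peroxidases GPX1, GPX4 and GPX8, the transferases GSTP1, GSTO1 and MGST1, and the glutaredoxins GLRX and GLRX2, which remove glutathione from proteins. None of the 9 rose in TPM and 1 fell (11.1%), near the 5.30% higher and 18.7% lower of all tested genes. GPX1, the abundant cytosolic selenium-dependent peroxidase, was at 336.25, 363.98 and 345.83 TPM in H182 and 388.68, 394.78 and 396.88 TPM in DMSO. The groups did not overlap, and the fall was small (log2 change -0.17, SE 0.038, adjusted p = 0.0106). With median-of-ratios scaling it missed the threshold (-0.07, adjusted p = 0.268), as it did without a mean-variance trend (adjusted p = 0.0656).

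GPX4, the peroxidase of lipid hydroperoxides, had 276 ± 1.35 TPM in H182 and 297 ± 8.91 TPM in DMSO (adjusted p = 0.0595). The TPM ratio of GPX1 to GPX4 overlapped between the groups (log2 difference -0.07, SE 0.038, exact permutation p = 0.3). MGST1, a membrane-bound transferase and peroxidase, was at 158.87, 174.81 and 185.65 TPM in H182, against 201.82, 191.15 and 192.73 TPM in DMSO. It was lower in every H182 library without passing (log2 change -0.18, adjusted p = 0.0517), and passed without H182 replicate 3 (-0.23, adjusted p = 0.0206) and with a minimum mean of 5 TPM (adjusted p = 0.0409). GSR, GPX8, GSTP1 and GSTO1 did not pass with any alternative, and their log2 changes lay between -0.15 and 0.08.

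The glutaredoxin genes were above DMSO in the H182 libraries. GLRX, the cytosolic form, was at 34.53, 33.01 and 35.16 TPM in H182 and 29.76, 31.04 and 30.56 TPM in DMSO. GLRX2, with mitochondrial and nuclear forms, was at 71.31, 71.94 and 67.31 TPM in H182 and 57.57, 63.87 and 65.75 TPM in DMSO. Neither gene's groups overlapped. They did not pass in TPM (log2 change 0.16 for GLRX, adjusted p = 0.0685, and 0.17 for GLRX2, adjusted p = 0.0716) and passed after median-of-ratios scaling, at 0.26 for GLRX (adjusted p = 0.0108) and 0.27 for GLRX2 (adjusted p = 0.0204). They also passed with quantile normalization and when HSPA1A, HSPA1B and DNAJB1 were left out of each library's total. GLRX overlaps RHOBTB3 and GLRX2 overlaps TROVE2 on the opposite strand. RHOBTB3 had 64.1 ± 10.3 TPM in H182 and 78.4 ± 3.30 TPM in DMSO, and TROVE2 had 32.8 ± 2.83 TPM in H182 and 35.5 ± 1.06 TPM in DMSO. Whether reads were counted by strand is not given in the sources used here, and the part of these neighbours in the values was not tested.

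The thioredoxin system, as grouped here, holds thioredoxin (TXN in the cytosol, TXN2 in mitochondria) and its selenoenzyme reductases TXNRD1 and TXNRD2. The peroxiredoxins PRDX1 to PRDX6, not all of which thioredoxin reduces, were placed with them. So was sulfiredoxin (SRXN1), which restores overoxidized peroxiredoxins. Of these 11 genes, 3 rose (27.3%, against 5.30% of all tested genes) and 1 fell (9.09%, against 18.7%). TXNRD1 (ENSG00000198431.15, chromosome 12, 104215779 to 104350305, plus strand) was at 369.55, 369.32 and 410.57 TPM in H182, against 307.70, 322.06 and 316.14 TPM in DMSO. The groups did not overlap, with H182 replicate 3 the highest (ratio of means 1.22, log2 change 0.28, SE 0.047, adjusted p = 0.00287). EID3, a gene annotated inside TXNRD1 on the same strand, was at 3.73, 3.51 and 5.36 TPM in H182, against 0, 0.04 and 0.16 TPM in DMSO. Its mean reached the 1 TPM minimum only through the H182 libraries, so no test is given. Whether reads of these overlapping genes were shared was not tested.

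SRXN1 (chromosome 20, 646615 to 653370, minus strand) was at 75.34, 73.69 and 78.01 TPM in H182 and 61.05, 62.75 and 66.86 TPM in DMSO. PRDX1 (chromosome 1, 45511036 to 45523047, minus strand), the main cytosolic substrate of sulfiredoxin, was at 867.65, 897.98 and 915.60 TPM in H182 and 781.83, 807.53 and 805.94 TPM in DMSO. Both rose without overlap between the groups. The log2 change was 0.25 for SRXN1 (SE 0.052, adjusted p = 0.00825) and 0.16 for PRDX1 (SE 0.034, adjusted p = 0.00797). PRDX1 stayed higher but did not pass with quantile normalization (0.12, adjusted p = 0.0601) or without a mean-variance trend (adjusted p = 0.0690). PRDX1 was the most abundant member, ranking 173 among all 27451 gene rows by mean TPM. MMACHC, on the strand opposite PRDX1, fell, with 9.85 ± 0.930 TPM in H182 and 12.8 ± 1.52 TPM in DMSO (log2 change -0.35, adjusted p = 0.0456), and its part in the PRDX1 value was not tested. The ratio of SRXN1 to PRDX1 overlapped between the groups (log2 difference 0.09, SE 0.039, exact permutation p = 0.2).

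PRDX3, the mitochondrial peroxiredoxin, was at 171.87, 171.69 and 183.43 TPM in H182, against 194.58, 200.79 and 197.43 TPM in DMSO. It fell in TPM (log2 change -0.17, SE 0.041, adjusted p = 0.0164), but not with median-of-ratios scaling (-0.07, adjusted p = 0.257) or quantile normalization (-0.09, adjusted p = 0.134). The call was also lost without H182 replicate 1 (adjusted p = 0.0503), H182 replicate 2 (0.0647) or DMSO replicate 2 (0.0599). PRDX3 missed the threshold as well with totals taken without HSPA1A, HSPA1B and DNAJB1 (adjusted p = 0.0564) and without a mean-variance trend (0.0698). PRDX4, the peroxiredoxin of the endoplasmic reticulum, was at 101.62, 94.31 and 106.14 TPM in H182 and 106.00, 114.98 and 121.77 TPM in DMSO. Its groups overlapped by 1 library and it did not pass (log2 change -0.18, adjusted p = 0.0654), though it did without DMSO replicate 1 (-0.23, adjusted p = 0.0344). PRDX2, PRDX5 and PRDX6 did not pass with any alternative, and their log2 changes were -0.10, -0.02 and -0.01.

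TXN, the substrate of TXNRD1, did not pass. It was at 644.39, 638.53 and 591.82 TPM in H182, against 625.48, 619.65 and 614.12 TPM in DMSO, with the DMSO libraries inside the range of the H182 libraries (log2 change 0.01, SE 0.039, adjusted p = 0.865). The TPM ratio of TXNRD1 to TXN was 0.574, 0.578 and 0.694 in H182 and 0.492, 0.520 and 0.515 in DMSO, 1.21-fold higher without overlap (log2 difference 0.27, SE 0.093, exact permutation p = 0.1, the smallest possible). Between the reductases of the glutathione and thioredoxin systems, the TPM ratio of GSR to TXNRD1 was 0.0555, 0.0520 and 0.0540 in H182 and 0.0715, 0.0755 and 0.0718 in DMSO. That ratio was lower in every H182 library (log2 difference -0.44, SE 0.037, exact permutation p = 0.1). Each of these ratios had an exact permutation p of 0.167 after adjustment. TXNRD1 also rose by itself, so neither ratio is a result separate from that rise. GSR, at 20.6 ± 1.48 TPM in H182 and 23.0 ± 1.19 TPM in DMSO, did not pass by itself (log2 change -0.15, adjusted p = 0.182).

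Cytosolic and mitochondrial forms of the same enzyme could be compared within each library. TXN2 was at 62.14, 62.17 and 62.12 TPM in H182, against 69.12, 65.87 and 73.46 TPM in DMSO. It was lower in each H182 library but did not pass (log2 change -0.16, adjusted p = 0.0564), except without DMSO replicate 2 (-0.19, adjusted p = 0.04915) or with a minimum mean of 5 TPM (adjusted p = 0.0488). TXNRD2 was at 15.28, 12.25 and 13.93 TPM in H182 and 14.46, 13.97 and 17.52 TPM in DMSO, with overlap (log2 change -0.14, adjusted p = 0.3965).

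Of the 5 pairs of this kind, 4 had a higher cytosolic to mitochondrial TPM ratio in every H182 library than in any DMSO library. No such share was computed over pairs of all tested genes. Taken singly, 8.67% of tested genes lay wholly above DMSO in TPM and 32.7% wholly below. TXNRD1, PRDX1 and SOD1 also rose by themselves, so their ratios are not results separate from those rises. The ratio of TXN to TXN2 was 10.4, 10.3 and 9.53 in H182 and 9.05, 9.41 and 8.36 in DMSO (log2 difference 0.17, SE 0.063). The ratio of TXNRD1 to TXNRD2 was 24.2, 30.1 and 29.5 in H182 and 21.3, 23.1 and 18.04 in DMSO (log2 difference 0.43, SE 0.145). The ratio of PRDX1 to PRDX3 was 5.05, 5.23 and 4.99 in H182 and 4.02, 4.02 and 4.08 in DMSO (log2 difference 0.33, SE 0.022). PRDX1 and PRDX3 had the narrowest spread of these pairs in DMSO. The ratio of SOD1 to SOD2 was 4.49, 4.43 and 3.57 in H182 and 3.19, 2.76 and 2.91 in DMSO (log2 difference 0.49, SE 0.124). Each of these 4 ratios had an exact permutation p = 0.1, the smallest possible, and an adjusted p of 0.167. The ratio of GLRX to GLRX2 overlapped between the groups (log2 difference 0.00, SE 0.070, exact permutation p = 0.9).

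**Figure D3:**
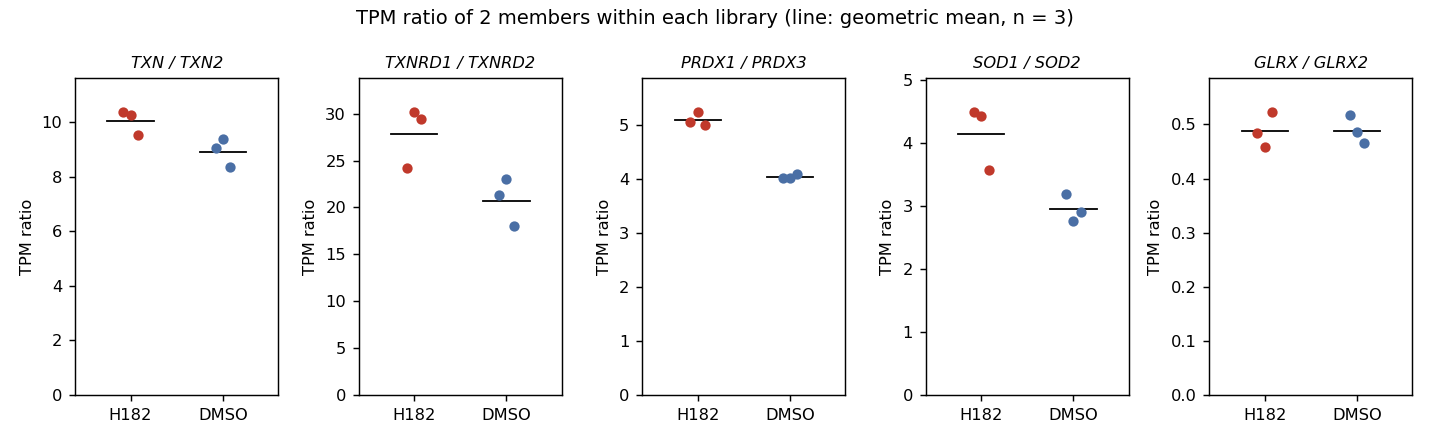
TPM ratio of a cytosolic to a mitochondrial form within each library, with H182 left of DMSO in each panel. Points are libraries and lines geometric means over 3 libraries. In the first 4 panels every H182 point is above every DMSO point, and in the last, GLRX over GLRX2, the groups overlap, between 0.459 and 0.522.

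NADPH supply is represented by PGD, the second dehydrogenase of the oxidative pentose phosphate pathway, TALDO1 and TKT of its non-oxidative part, and ME1, the cytosolic malic enzyme. None of these 4 passed in TPM, with median-of-ratios scaling or with any other alternative that was run. In TPM, 5.30% of all tested genes were higher and 18.7% lower, and no call among 4 genes is near those shares. PGD had 110 ± 4.99 TPM in H182 and 116 ± 5.44 TPM in DMSO. TALDO1 had 236 ± 9.58 TPM in H182 and 232 ± 2.45 TPM in DMSO. TKT had 309 ± 14.02 TPM in H182 and 318 ± 16.0 TPM in DMSO. ME1 was low, at 4.01 ± 0.335 TPM in H182 and 4.22 ± 0.240 TPM in DMSO. In all 4 genes the groups overlapped, and the log2 changes ran from -0.08 to 0.02 with SEs of 0.040 to 0.116. The TPM ratio of ME1 to PGD overlapped between the groups as well (log2 difference 0.01, SE 0.106, exact permutation p = 1).

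The quinone reductase NQO1, which spends NADPH or NADH to reduce quinones, is among the best known NRF2 targets in human cells. NQO1 (ENSG00000181019.12, chromosome 16, 69706996 to 69726951, minus strand) was at 320.91, 305.89 and 328.73 TPM in H182, against 253.31, 253.81 and 250.91 TPM in DMSO. The groups lay well apart, and NQO1 rose 1.26-fold (log2 change 0.33, SE 0.038, adjusted p = 0.000288). OSGIN1, an oxidative stress-induced growth inhibitor, was at 6.62, 6.50 and 5.76 TPM in H182 and 3.80, 5.14 and 4 TPM in DMSO. It rose without overlap (log2 change 0.46, SE 0.128, adjusted p = 0.0280), but its adjusted p was 0.0807 to 0.0864 without H182 replicate 1, H182 replicate 2, DMSO replicate 1 or DMSO replicate 3. It was also 0.0759 with no filter on low values. PIR, an iron-binding nuclear protein gene, had 2.09 ± 0.287 TPM in H182 and 2.08 ± 0.257 TPM in DMSO and did not pass (log2 change 0.01). The ratio of OSGIN1 to NQO1 overlapped between the groups (log2 difference 0.22, SE 0.158, exact permutation p = 0.2).

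Superoxide dismutases turn superoxide into hydrogen peroxide, and catalase splits that peroxide. SOD1, the cytosolic copper-zinc enzyme (ENSG00000142168.14, chromosome 21, 31659622 to 31668931, plus strand), was at 270.28, 267.21 and 254.11 TPM in H182, against 200.89, 198.67 and 208.95 TPM in DMSO. It rose 1.30-fold without overlap (log2 change 0.38, SE 0.0405, adjusted p = 0.000180). SOD2, the mitochondrial manganese enzyme, was at 60.19, 60.30 and 71.15 TPM in H182 and 62.96, 72.09 and 71.82 TPM in DMSO. Its groups overlapped, H182 replicate 3 lying among the DMSO libraries, and it did not pass (log2 change -0.11, adjusted p = 0.342). WTAP, on the strand opposite SOD2, had 85.7 ± 1.01 TPM in H182 and 85.6 ± 4.34 TPM in DMSO. Catalase, CAT, had 28.1 ± 3.24 TPM in H182 and 28.4 ± 1.22 TPM in DMSO and did not pass (log2 change -0.02). CCS, the copper chaperone of SOD1 and not a member, was named after its values were seen. It had 24.9 ± 1.80 TPM in H182 and 20.4 ± 0.268 TPM in DMSO and rose (log2 change 0.27, adjusted p = 0.0240).

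Members that rose and members that did not pass spanned similar levels. The 10 that rose had mean levels from 5.30 TPM (OSGIN1) to 846 TPM (PRDX1) over the 6 libraries, and the 25 that did not pass either way ranged from 2.09 TPM (PIR) to 622 TPM (TXN). CHAC1 was near the middle of this range in H182, at 122 ± 6.16 TPM, and with OSGIN1, ME1 and PIR among the lowest in DMSO, at 6.25 ± 0.922 TPM. Summed over all 37 members, 6324 ± 69.6 TPM in H182 and 6012 ± 68.6 TPM in DMSO belonged to these genes, or 0.632% and 0.601% of the library. The 11 thioredoxin system genes made up 3090 ± 19.5 TPM of this sum in H182 and 2982 ± 25.8 TPM in DMSO.

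**Figure D4:**
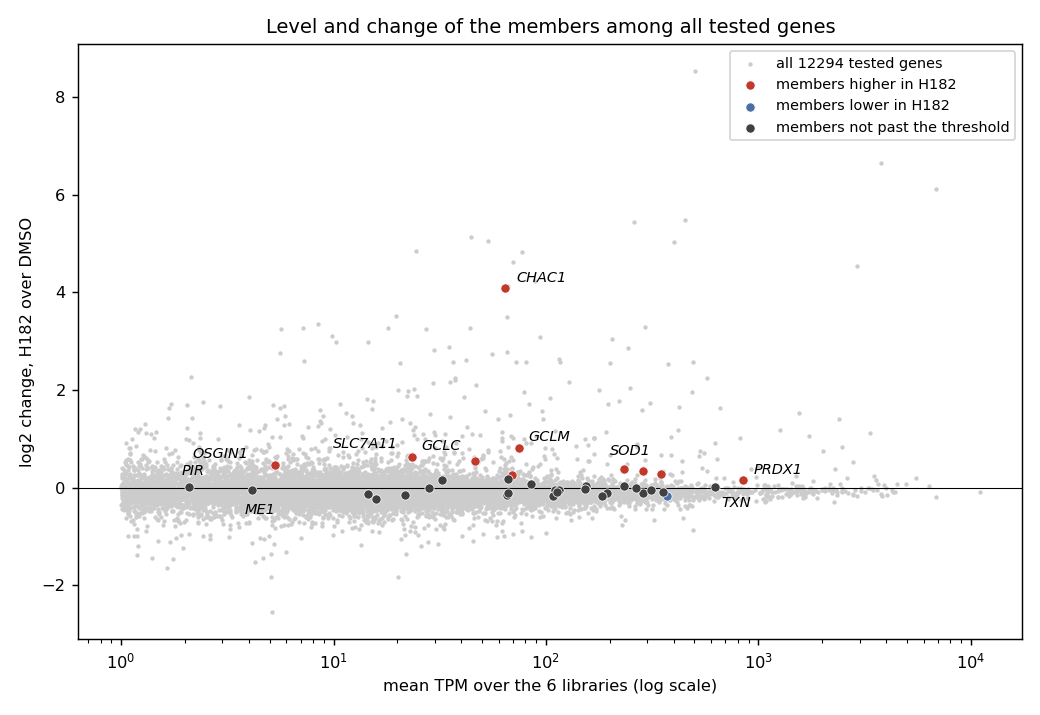
Log2 change in H182 over DMSO against mean TPM over the 6 libraries (log scale) for all 12294 tested genes in grey, with the 37 members coloured by their call. CHAC1 stands at 4.10 apart from the other members, which all lie within 1 of 0 on the log2 scale across levels from 2.09 to 846 TPM.

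Further genes of these pathways were examined as 5 lists, of which 94 genes had a row and 86 were tested. Of these, 6 rose and 13 fell in TPM (median log2 change -0.08). That is 6.98% higher and 15.1% lower, near the 5.30% and 18.7% of all tested genes. On the median-of-ratios scale 8 were higher and 2 lower (9.3% and 2.33%, against 7.91% and 6.79% of all tested genes). The number lower was 5 without H182 replicate 1 and 6 without H182 replicate 2, DMSO replicate 1 or DMSO replicate 2. The 6 rises were SLC3A2, CTH, SESN2, SESN3, MTHFD2 and CCS. SLC3A2, the heavy chain that pairs with SLC7A11 at the membrane, was at 632.03, 648.29 and 641.60 TPM in H182 and 414.36, 399.01 and 416.52 TPM in DMSO (log2 change 0.64, SE 0.033, adjusted p = 8.94e-07). CTH, cystathionine gamma-lyase, which makes cysteine by transsulfuration, was at 70.16, 62.66 and 61.82 TPM in H182 and 18.01, 17.24 and 16.15 TPM in DMSO. It rose 3.79-fold (log2 change 1.86, SE 0.071, adjusted p = 7.37e-08), while CBS, the enzyme before it in the pathway, was at 0.13 TPM or below in every library. In this list of glutathione enzymes and carriers, 2 of 32 tested genes rose (6.25%, against 5.30% of all tested genes) and 5 fell (15.6%, against 18.7%). The 5 falls, named after their values were seen, were GSTM4, LANCL1, GLO1, GLRX5 and ABCC4, at -0.37 to -0.15, and none passed with median-of-ratios scaling.

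Of 18 other thioredoxin family and repair genes tested, 3 rose (16.7%, against 5.30% of all tested genes) and 1 fell (5.56%, against 18.7%). The sestrins SESN2 and SESN3, which restrain mTORC1 and act in antioxidant defence, were among the rises. SESN2 had 80.2 ± 3.21 TPM in H182 and 7.39 ± 0.429 TPM in DMSO (log2 change 3.28, adjusted p = 9.81e-10), and SESN3 had 2.46 ± 0.156 TPM in H182 and 1.24 ± 0.0379 TPM in DMSO (log2 change 0.63, adjusted p = 0.00976). SESN1, the third sestrin gene, had a log2 change of -0.13 and did not pass (adjusted p = 0.4496). The fall, named after its values were seen, was TXNDC5, a disulfide isomerase of the endoplasmic reticulum (-0.25, adjusted p = 0.00158).

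Of 16 other NADPH supply genes tested, 1 rose (6.25%) and 3 fell (18.8%), shares near the 5.30% and 18.7% of all tested genes. The falls were MTHFD1, RPE, the epimerase of the pentose phosphate pathway (-0.28, adjusted p = 0.0183), and NNT, the mitochondrial transhydrogenase (-0.25, adjusted p = 0.0155). RPE and NNT were named after their values were seen, and none of the 3 passed with median-of-ratios scaling. The rise was MTHFD2, a mitochondrial folate dehydrogenase, with 106 ± 4.61 TPM in H182 and 78.0 ± 2.48 TPM in DMSO (log2 change 0.44, adjusted p = 0.000268). MTHFD1, its cytosolic counterpart, had 131 ± 2.51 TPM in H182 and 153 ± 3.02 TPM in DMSO (-0.22, adjusted p = 0.00401). Selenoprotein synthesis genes serve the TXNRD enzymes and selenium-dependent peroxidases such as GPX1. They had no rise and 3 falls among 7 tested (42.9%, against 18.7% of all tested genes). With median-of-ratios scaling they had 1 fall (14.3%, against 6.79%). SECISBP2, named after its values were seen, was 1 of the 3 falls (-0.23, adjusted p = 0.0387) and did not pass on the other scale (adjusted p = 0.199). SEPHS2, the selenophosphate synthetase, had 32.3 ± 0.697 TPM in H182 and 39.2 ± 0.508 TPM in DMSO (-0.27, adjusted p = 0.00615). SEPHS2 passed on the median-of-ratios scale too (-0.17, adjusted p = 0.0463). SEPHS1 had 79.8 ± 6.10 TPM in H182 and 97.0 ± 5.96 TPM in DMSO (-0.28, adjusted p = 0.01495), a call lost with that scaling (adjusted p = 0.112). Among 13 other NADPH-dependent reductases none rose and 1 fell (7.69%, against 18.7% of all tested genes). CBR1, a carbonyl reductase, fell (-0.21, adjusted p = 0.0403), though not with that scaling (adjusted p = 0.233).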

How the data were processed

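Libraries were made with a stranded poly-A kit, per the labels' protocols. STAR 2.5.0 and RSEM 1.2.25 are named, with the build GRCh38, per the submitters' processing notes. Annotation, trimming and strand setting are not given in the sources used here. What the authors deposited is TPM per gene, with 2 decimals, scaled to 1000000 per library. A large rise of some transcripts therefore lowers the TPM of all others. Of 27567 rows, 92 spike-in rows and 24 second rows of genes on X and Y were left out. Values were analysed as log2(TPM + 1), which understates changes of low genes, in genes whose mean over the 6 libraries was 1 TPM or more. H182 was compared with DMSO by limma 3.58.1 in R 4.3.3 (mean-variance trend, two-sided), with adjustment over all tested genes. Each ± is an SD over 3 libraries. The members, lists and rules for named genes were chosen with earlier results of these data known. Values per library are given for members past the threshold, both forms of each cytosolic and mitochondrial pair, the glutathione synthesis genes, and the 3 other members with the largest changes. Named other genes are those that passed with a log2 change of at least 0.5 in size or, in a list with none, the 2 with the lowest p, and some items are not reported here. TPM ratios were compared by exact permutation over libraries. On simulated data for the 12294 genes, the fit recovered 15.4% of log2 changes of 0.25, 60.6% of those of 0.5 and 88.2% of those of 1. Far fewer genes changed in each simulation than were called here, so these shares need not hold for the real data. RSEM divides reads between similar sequences, and in GENCODE 29 pseudogenes carry the names of 11 members. Coordinates are from GENCODE 29 and promoters from RefSeq (GRCh38.p14). Alternatives covered pseudocount, filter, scaling, variance model, a replicate block and leaving out each library. Figures were drawn with matplotlib 3.10.9.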

Additional observations from a re-analysis of the deposited data

How the results depend on the processing

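Of the 10 rises, those of CHAC1, GCLM, GCLC, SLC7A11, TXNRD1, SRXN1, NQO1 and SOD1 passed in all 15 alternatives, and no called member changed sign. The members higher numbered 9 to 12 over all alternatives. Those lower numbered 0 with median-of-ratios scaling or without a mean-variance trend, 1 with quantile normalization or with totals taken without HSPA1A, HSPA1B and DNAJB1, 4 with a minimum mean of 5 TPM, and 1 to 4 with a library left out. Of all tested genes, 835 were lower with median-of-ratios scaling (972 higher), 1261 with quantile normalization (833 higher) and 1497 without those 3 genes in the total, and 1407 to 2205 with a library left out. Of the other pathway genes, 2, 5 and 7 were lower with these scalings in the same order, 7 without a mean-variance trend, and 5 to 14 with a library left out. Adding 1 TPM moved the log2 difference of CHAC1 over CHAC2 to 4.33 and of CHAC1 over GGCT to 4.14. At a minimum mean of 5 TPM, ME1 and PIR gave no value.

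With the replicate number as a block, 10 members were higher and 2 lower. Same-numbered libraries correlated at -0.013, 0.0025 and -0.0359 in their deviations from group means, and no H182 library correlated best with its own number. Such deviations cancel within a group of 3 libraries, so the check cannot show whether same-numbered libraries shared a culture or a batch. The block gave 625 genes higher and 2059 lower. Since depth is unknown, no counting error could be given.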
